A study of Mus musculus with 12 samples.

Results

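Close alternative splice sites are pairs of 5′ or of 3′ splice sites that lie within 30 nt of each other, so that the mature transcripts differ by a short stretch at an exon's edge. They were taken from the table of introns as the splicing clusters that hold exactly 2 introns, share their start or their end, and differ in length by 2 nt or by 4 to 30 nt. A cluster is a group of introns with shared sites, and no cluster differed by 1 nt. Pairs 3 nt apart were left out. The rule used positions alone, and it found 917 of the 7263 clusters that were tested, in 784 genes. Of these, 438 had alternative 5′ sites and 478 alternative 3′ sites, while the introns of 1, in *Ciao2b*, had ends that gave no strand. The distance was divisible by 3 in 338 clusters and not in 579.

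The 12 samples were mouse embryonic stem cells of a female 129S x Cast hybrid line that carries METTL3 with a C-terminal FKBP12(F36V) tag and a doxycycline-inducible *Xist*. METTL3 is the catalytic subunit of the complex that places N6-methyladenosine (m6A) on RNA, and dTAG-13 is a small molecule that directs the tagged protein to degradation. The untreated group (0 h) and the dTAG-13 group (3 h) had 6 samples each, with 3 replicates from each of the clones C3 and H5, and all were labelled with 4-thiouridine (4sU) for 30 min so that newly made RNA was sequenced. The comparison asks which splicing choices differ soon after METTL3 is lost. The line is a single engineered genotype, the cells were grown on feeder fibroblasts, and no source says whether the replicates were separate cultures, so p-values measure the spread between these samples, which may be technical.

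A splice site is read by the spliceosome from short signals. The 5′ site begins the intron, nearly always with GT and less often GC, and pairs with U1 and later U6 snRNA. The 3′ site ends it with AG behind a run of pyrimidines bound by U2AF. Where such signals occur close together the spliceosome may use either. In a coding exon, a stretch whose length is a multiple of 3 adds or removes whole amino acids. Another length shifts the reading frame, which usually brings a stop codon, and an mRNA with a stop codon well upstream of its last exon junction is a substrate of nonsense-mediated decay (NMD).

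The sequences below show what such pairs look like, as RNA-sense DNA from the GRCm38 (mm10) genome, 5′ to 3′. Capitals mark the terminal bases of the intron at both sites, GT for a pair of 5′ sites and AG for a pair of 3′ sites. The stretch between them is exon in the form with the shorter intron and intron in the form with the longer one, and 12 nt stand on either side of it. The first 4 come from *Cnot1*, the scaffold of the CCR4-NOT deadenylase complex, the gene with the most clusters. They lie at introns 39, 19, 29 and 9 of 48, and their use is compared below.
Cnot1, 5′ sites 21 nt apart, chr8:95733059-95733103, minus strand: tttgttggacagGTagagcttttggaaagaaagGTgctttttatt
Cnot1, 5′ sites 15 nt apart, chr8:95754953-95754991, minus strand: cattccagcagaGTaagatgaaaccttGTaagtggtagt
Cnot1, 5′ sites 4 nt apart, chr8:95744197-95744224, minus strand: tcacaacaacaaGTaaGTgcacaagttc
Cnot1, 3′ sites 14 nt apart, chr8:95769600-95769637, minus strand: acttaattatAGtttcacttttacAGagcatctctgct

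The next 4 show the most frequent distance, 4 nt. In the 5′ pairs of this distance, use went with the bases between the sites. *Tbx3*, a T-box factor of the pluripotency network, and *Ubtf*, the RNA polymerase I factor UBF, have 5′ pairs. *Foxred1*, a mitochondrial complex I assembly factor, and *Rif1*, a replication timing and telomere protein, have 3′ pairs. *Ubtf* was chosen after its values were seen.
Tbx3, chr5:119672393-119672420, plus strand: gaagtcaggaagGTaaGTaagtaatcag
Ubtf, chr11:102307067-102307094, minus strand: cctgcagtccaaGTcgGTaaggcacccc
Foxred1, chr9:35207971-35207998, minus strand: catttctcttAGgcAGgaaggagccaaa
Rif1, chr2:52105423-52105450, plus strand: actctttcctAGttAGaaaagctattgg

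The last 6 are the pairs with the lowest p-values in the comparison with dTAG-13 (*Psmd4*, *Rpl36a*, *Zfp821* and *Pum2*), the pair in *Fgfr1*, a fibroblast growth factor receptor gene known for close splice sites, and the pair in *Ythdc1*, which encodes the nuclear m6A reader.
Psmd4, 5′ sites 28 nt apart, chr3:95036565-95036616, minus strand: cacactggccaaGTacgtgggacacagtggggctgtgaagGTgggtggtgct
Rpl36a, 5′ sites 21 nt apart, chrX:134586567-134586611, plus strand: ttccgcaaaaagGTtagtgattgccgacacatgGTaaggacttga
Zfp821, 5′ sites 19 nt apart, chr8:109717876-109717918, plus strand: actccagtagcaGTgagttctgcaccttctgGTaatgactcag
Pum2, 3′ sites 15 nt apart, chr12:8718976-8719014, plus strand: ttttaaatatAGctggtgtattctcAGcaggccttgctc
Fgfr1, 5′ sites 6 nt apart, chr8:25557803-25557832, plus strand: ccaaaccaaaccGTaggcGTgagacactgt
Ythdc1, 3′ sites 24 nt apart, chr5:86831761-86831808, plus strand: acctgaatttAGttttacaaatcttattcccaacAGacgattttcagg

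The values are percent spliced in (PSI), given here as a fraction. PSI is the share of a cluster's split reads, those that span a junction, that use an intron, and in these clusters the PSI of the longer and of the shorter intron sum to 1. The deposited table holds 1 fitted PSI for the untreated samples together and 1 for the dTAG-13 samples together. Values per sample, split read counts and standard errors were not in the files used here. The depth behind each PSI is therefore unknown beyond the authors' minimum of 30 split reads per cluster, and the spread between replicates enters through the LeafCutter p-value of each cluster alone. Descriptions of untreated PSI carry no test.

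In untreated cells the less used intron of a pair had a median PSI of 0.0777 (quartiles 0.0288 and 0.174), and it reached 0.2 in 197 of the 917 clusters (21.5%, 95% Wilson interval 18.9 to 24.3% over clusters). Its values ran from 0.000992 in *Rpl4*, a ribosomal protein gene, to 0.4996. The longer intron was the more used form in 372 clusters (40.6%). The clusters were of coding genes in the main: 814 of 917 lay in coding sequence of the annotated transcript, 312 with a distance divisible by 3 and 502 without. There were 68 in 5′ UTRs (16 and 52) and 11 in 3′ UTRs (1 and 10), and 24 had only noncoding, incomplete or no annotated transcripts.

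Among the distances kept, 4 nt stood out by number, while the pairs 3 nt apart, left out here, numbered 501. Distances of 4 nt accounted for 155 clusters, 72 with 5′ and 83 with 3′ sites, ahead of 6 nt with 77 and 5 nt with 71. The 19 clusters 2 nt apart included the pair without a strand. No distance over 6 nt had more than 42 clusters.

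**Figure D1:**
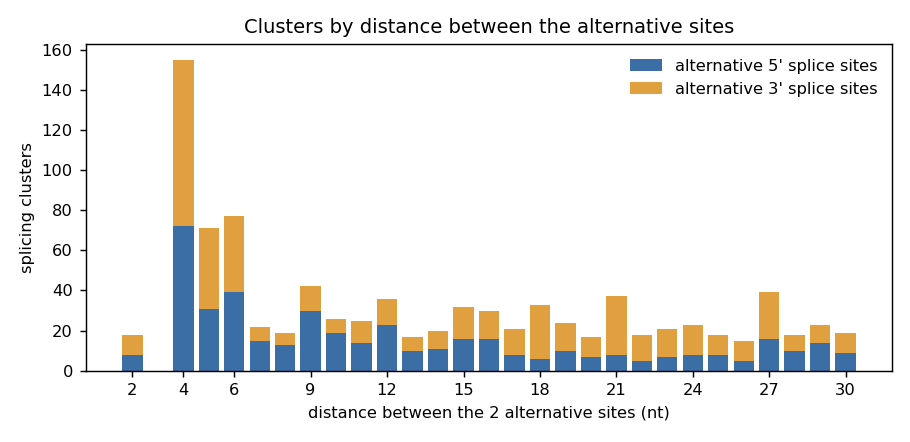
Number of splicing clusters (y axis) by the distance in nt between the alternative sites (x axis), with 5′ sites in blue and 3′ sites stacked on them in orange. The bar at 4 nt reaches 155 clusters, and no distance of 3 nt is shown because it was left out. The cluster without a strand is not drawn.

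Pairs whose distance was a multiple of 3 used the minor form more in untreated cells. The median PSI of the less used intron was 0.128 (quartiles 0.0507 and 0.281) over the 338 clusters divisible by 3 and 0.0571 (quartiles 0.0238 and 0.125) over the 579 others. The less used intron reached 0.2 in 119 of 338 (35.2%, 95% Wilson interval 30.3 to 40.4%) and in 78 of 579 (13.5%, 10.9 to 16.5%). The same order held after dTAG-13, with medians of 0.133 and 0.0601. It held for 5′ sites (0.136 in 155 clusters against 0.0782 in 283) and for 3′ sites (0.124 in 183 against 0.0462 in 295). Clusters of 1 gene share their transcripts, and the difference between the classes was described without a test.

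Taken by exact distance, the 9 distances divisible by 3 had medians between 0.0965 and 0.184. The 19 others had medians between 0.0394 and 0.112. The ranges overlapped, since the lowest median of the first class, at 6 nt, was below those of a few longer distances that shift the frame, such as 28 nt. Just inside the upper limit, the 42 clusters 29 or 30 nt apart had a median of 0.0833, and just outside it the 30 clusters 31 or 32 nt apart had one of 0.0766. From 31 to 150 nt, the less used intron had a median of 0.102 in 315 clusters divisible by 3 and of 0.0741 in 523 others. The 501 pairs 3 nt apart had a median of 0.182.

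**Figure D2:**
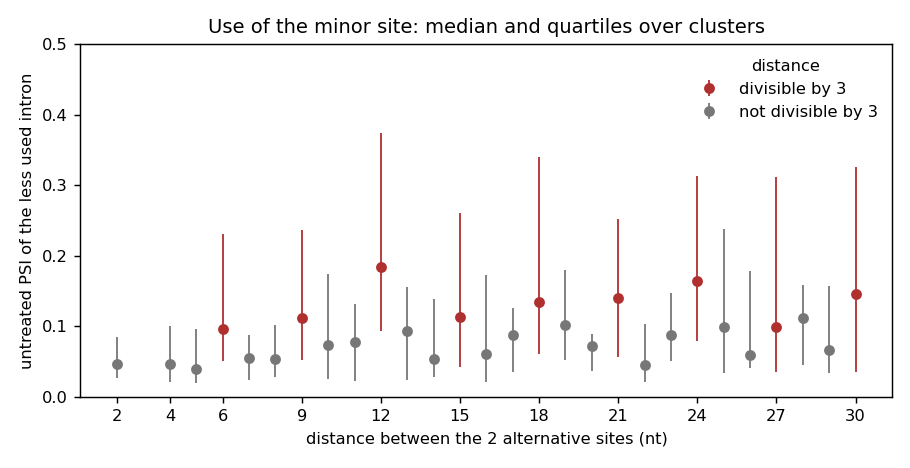
Untreated PSI of the less used intron (y axis) at each distance between the sites in nt (x axis); points are medians over clusters and bars run from the lower to the upper quartile. Red points, the distances divisible by 3, have medians of 0.0965 to 0.184, and grey points, the others, of 0.0394 to 0.112.

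The classes lay apart in coding sequence. In coding sequence the medians were 0.130 for the 312 clusters divisible by 3 and 0.0531 for the 502 others, and the less used intron reached 0.2 in 35.3% and in 8.96% of them. In 5′ UTRs, which are not translated from the main start codon, they were 0.169 for 16 clusters and 0.173 for 52, with 43.8% and 44.2% at 0.2 or more. With both introns annotated, the medians in 5′ UTRs were 0.320 for 8 clusters and 0.189 for 31. The 16 clusters of the first class allow no narrow statement, and the difference between coding sequence and 5′ UTR was not tested.

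**Figure D3:**
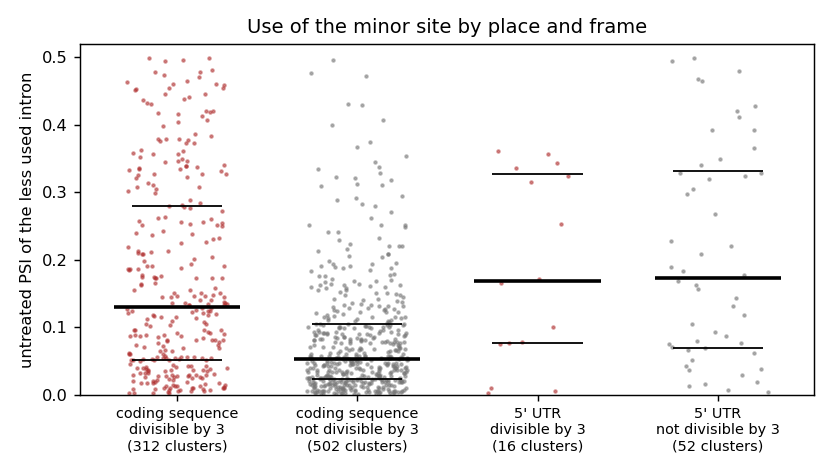
Untreated PSI of the less used intron (y axis) for each cluster (points, spread sideways at random) in coding sequence and 5′ UTR, split by whether the distance is divisible by 3; thick lines are medians and thin lines quartiles. The coding classes have medians of 0.130 and 0.0531, and the 5′ UTR classes of 0.169 and 0.173.

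The form that the chosen transcript does not hold was translated from the annotated start codon. Of the 502 coding clusters not divisible by 3, this form met a stop codon more than 50 nt before the last exon junction, the usual rule for an NMD substrate, in 448, and another stop codon in 52. Of the 312 divisible by 3, it kept the annotated stop codon in 289. In 22 of the 312 adding the stretch brought a new stop codon in frame, more than 50 nt before the last junction. In these 22 the longer intron, which removes the stop codon, was the more used form in all. This is largely fixed by how the set was made, since it needs an annotated transcript with the longer intron, and in 13 of the 22 that intron is the only annotated one. The less used intron had a median PSI of 0.032 in the 22 and of 0.136 in the 289 that kept the stop codon. The number of clusters with a stop codon over 50 nt before the last junction was 470 in both classes together, with a median of 0.05.

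*Cnot1* showed both classes within 1 gene. Its 4 pairs with distances divisible by 3 had an untreated PSI of the less used intron of 0.479 (5′ sites, 21 nt, intron 39), 0.383 (5′ sites, 15 nt, intron 19), 0.0152 (3′ sites, 6 nt, intron 3) and 0.0131 (3′ sites, 6 nt, intron 13). Its 4 other pairs, each with an NMD-type stop codon in the other form, had 0.0222 (19 nt, intron 32), 0.00942 (16 nt, intron 33), 0.00515 (4 nt, intron 29) and 0.00407 (14 nt, intron 9). The pairs that keep the frame thus ran from low to near-equal use, and those that shift it were all low. The longer intron of the 21 nt pair had 0.479 in untreated and 0.463 in dTAG-13 samples, with a LeafCutter p-value of 0.51. *Birc6*, a giant inhibitor of apoptosis with a ubiquitin-conjugating domain, had 4 pairs that all kept the frame, with the less used intron between 0.0693 and 0.459. In all, 76 genes had 2 pairs and 16 had 3 or more.

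Annotation went with use. Both introns were in the annotation in 200 of the 338 clusters divisible by 3 (59.2%) and in 207 of the 579 others (35.8%). In the 504 clusters with exactly 1 annotated intron, the annotated intron was the more used in 496. When both introns were annotated, the coding clusters had medians of 0.204 in the 189 divisible by 3 and 0.0996 in the 166 others. The annotation is built from sequenced transcripts and is therefore no independent measure of use.

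The strength of the sites also went with use. Each site was scored in bits by how well its bases fit the annotated sites of clusters outside the set, 10944 donors and 10582 acceptors, over 3 exonic and 6 intronic bases for a 5′ site and 20 intronic and 3 exonic bases for a 3′ site. The site with the higher score was the more used in 286 of 438 pairs of 5′ sites (65.3%, 95% Wilson interval 60.7 to 69.6%) and in 350 of 478 pairs of 3′ sites (73.2%, 69.1 to 77.0%). The share grew with the gap between the scores. With a gap under 2 bits it was 53.6% for 5′ and 54.5% for 3′ sites, with 2 to under 5 bits 75.7% and 73.5%, and with 5 bits or more 94.1% and 86.5%. By frame class the shares were 63.9% (divisible by 3) and 66.1% for 5′ sites, and 65.0% and 78.3% for 3′ sites. The annotated sites behind the scores were taken whatever their use or gene. Annotation itself goes with use, and the windows of sites a few nt apart overlap.

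**Figure D4:**
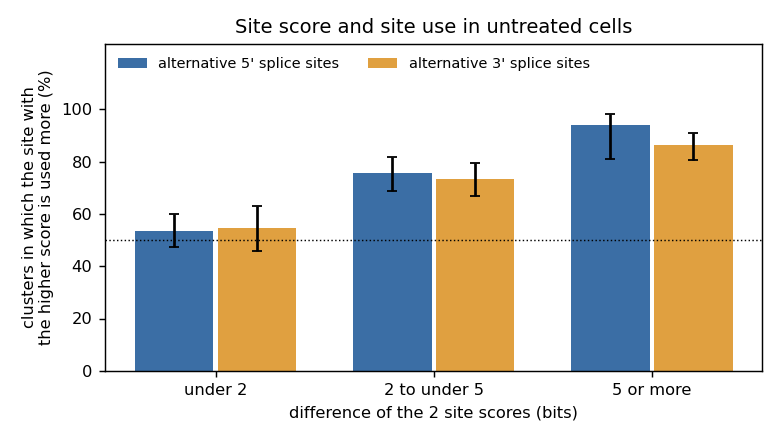
Share of clusters in percent (y axis) in which the site with the higher score is the more used in untreated cells, by the difference of the scores in bits (x axis), for 5′ sites (blue) and 3′ sites (orange); bars carry 95% Wilson intervals over clusters and the dotted line is at 50%. The shares go from 53.6% and 54.5% to 94.1% and 86.5%.

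In pairs of 3′ sites 4 nt apart the upstream site prevailed. Of the 83 pairs of 3′ sites, the downstream AG, which makes the longer intron, was the more used in only 2 (2.41%), and the longer intron had a median PSI of 0.0387. The 40 pairs of 3′ sites 5 nt apart had a median of 0.0389. In the printed pairs, the longer intron had 0.194 in *Foxred1* and 0.0139 in *Rif1*. The 4 bases before the downstream site were GCAG in 20 of 82 pairs (median PSI of the longer intron 0.0335), ACAG in 13 (0.0387), ATAG in 11 (0.0549) and GAAG in 11 (0.0389). With 6 nt between 3′ sites the downstream AG was the more used in 5 of 38, and from 11 to 20 nt in 73 of 134 (54.5%).

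Of the 72 pairs of 5′ sites 4 nt apart, the upstream site, which makes the longer intron, was the more used in 38 (52.8%), with a median PSI of the longer intron of 0.566. Use went with the 4 bases between the sites, which are the first intronic bases of the upstream site. The longer intron had a median PSI of 0.972 in the 7 pairs with GTAA (from 0.535 to 0.995) and of 0.916 in the 9 with GTGA (0.468 to 0.984). It had 0.57 in the 21 with GTAG (0.0146 to 0.995) and 0.0897 in the 13 with GTGG (0.0108 to 0.989). The 7 with GCAG had 0.412. In a good upstream site the bases GTAAGT or GTGAGT continue into the downstream GT, as the *Tbx3* pair shows, with 0.982 for the longer intron and scores of 12.9 bits upstream and 8.39 bits downstream. In *Ubtf* the bases are GTCG, the scores 3.09 and 7.35 bits, and the longer intron had 0.00594. Across all distances, 35 pairs set a GC donor against a GT donor. The GC site had a median PSI of 0.0848 (from 0.00166 to 0.979) and was the less used in 24.

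After dTAG-13, no close pair passed the threshold. LeafCutter's p-value was at most 0.05 in 44 of the 917 clusters (4.80%, 95% Wilson interval 3.59 to 6.38%), while over all tested clusters it was so in 6.84%. After Benjamini-Hochberg adjustment over the 7263 clusters none of the 917 was under 0.05, against 0.702% of all tested clusters. At an adjusted p under 0.2 there were 3, *Psmd4*, *Rpl36a* and *Zfp821* (0.327%), against 1.58% of all. A difference in PSI of at least 0.1 was found in 18 (1.96%), against 4.63% of all tested clusters, which include clusters of many introns, and 3.77% of all 3448 clusters of 2 introns with a shared site. The median absolute difference was 0.0121, and it was 0.0162 in the 2531 other clusters of 2 introns. Of the 501 pairs 3 nt apart, 3.59% had p at most 0.05 and 1.60% a difference of at least 0.1. None of them had an adjusted p under 0.05. Of the 838 pairs 31 to 150 nt apart, 7.16% and 2.39% did, and 1 had an adjusted p under 0.05. The median absolute differences were 0.0177 and 0.0140. Few large differences were thus not particular to the 917. The shares of the 917 lie below those of all clusters, and the difference was not tested. The Wilson interval is over clusters, which are not replicates, and it compares no shares.

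The differences had no common direction. The longer intron had the higher PSI after dTAG-13 in 445 of 917 clusters (48.5%), and in 48.6% of all clusters of 2 introns with a shared site. With p at most 0.05, it was higher in 24 (2.62%, against 3.57% of all such clusters) and lower in 20 (2.18%, against 3.51%). Of the 44, 14 were among the 338 divisible by 3 (4.14%) and 30 among the 579 others (5.18%). In the first class the longer intron was higher in 5 of these (1.48%) and lower in 9 (2.66%). In the second class it was higher in 19 (3.28%) and lower in 11 (1.90%), and the directions of the classes were not tested. The median absolute difference was 0.0141 in the first class and 0.0107 in the second.

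**Figure D5:**
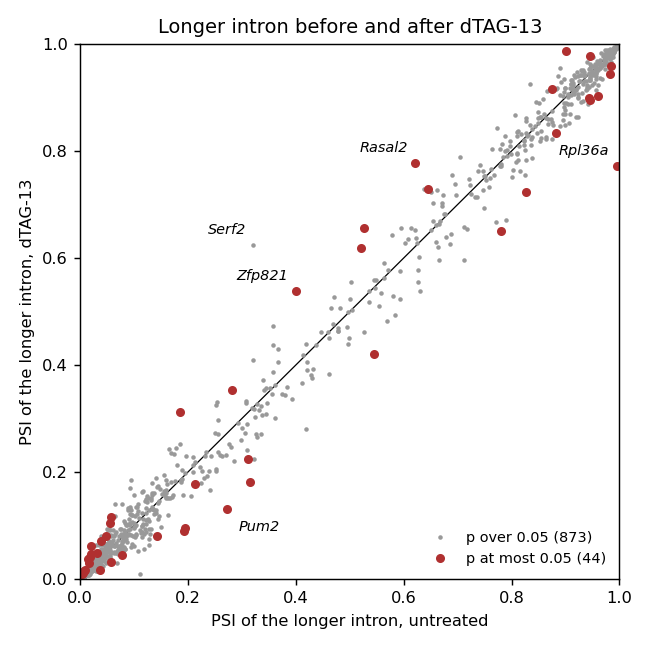
Fitted PSI of the longer intron in untreated samples (x axis) and in dTAG-13 samples (y axis) for each of the 917 clusters; red points are the 44 with a LeafCutter p-value of at most 0.05, grey points the 873 others, and the line marks equal values. Most points lie near the line, and the farthest, *Serf2*, goes from 0.321 to 0.624 with p over 0.05.

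The pair with the lowest p-value was in *Psmd4*, which encodes the proteasome's ubiquitin receptor RPN10. The longer intron had a PSI of 0.984 in untreated and 0.959 in dTAG-13 samples, with a p-value of 0.0015 and an adjusted p-value of 0.128. Both introns are annotated (intron 2 of 9), and the 28 nt shift the frame. The minor form was thus rare in both conditions.

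In *Rpl36a*, a gene of the large ribosomal subunit, the longer intron had 0.995 and 0.772, with a p-value of 0.00242 and an adjusted p-value of 0.175. The shorter intron, which adds 21 nt in frame (intron 3 of 4), is not annotated. Genes of ribosomal proteins have many processed copies in the genome, and only uniquely mapped reads were used.

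*Zfp821*, a zinc finger gene, had 0.399 and 0.539 for the longer intron of a pair 19 nt apart, with a p-value of 0.00246 and an adjusted p-value of 0.175. The sites scored 5.36 and 5.98 bits. Both introns are annotated, and the other form has a stop codon of the NMD type.

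Adjusted p-values started at 0.235 in the others. *Pum2*, a Pumilio RNA-binding repressor, had 0.273 and 0.130 for the longer intron of a 15 nt pair that keeps the frame (adjusted p-value 0.235). *Cnot6*, a catalytic deadenylase of the complex that *Cnot1* holds together, had 0.826 and 0.723 (15 nt, adjusted p-value 0.274). *Rasal2*, a Ras GTPase-activating protein, had 0.621 and 0.777 (21 nt, adjusted p-value 0.335), and *Depdc5*, a GATOR1 subunit that restrains mTORC1, had 0.545 and 0.420 (27 nt, adjusted p-value 0.373). In all 4 both introns are annotated and the frame is kept.

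Among pairs that shift the frame, *Mrpl21*, a mitochondrial ribosomal protein gene, had 0.946 and 0.977 for the longer intron (adjusted p-value 0.272). *Brf1*, a subunit of the RNA polymerase III factor TFIIIB, had 0.780 and 0.651 (26 nt, adjusted p-value 0.381). *Foxred1* had 0.194 and 0.0958 (adjusted p-value 0.392), and *Helq*, a DNA repair helicase, 0.527 and 0.656 (13 nt, adjusted p-value 0.444). The remaining 2 of the 12 lowest p-values belonged to *Zfp148*, a zinc finger factor, with 0.982 and 0.944 (18 nt, adjusted p-value 0.272), and *Alg13*, a subunit of the enzyme for the second step of N-glycan assembly, with 0.031 and 0.0488 (9 nt, adjusted p-value 0.434).

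The largest difference in PSI, in *Serf2*, was 0.303, from 0.321 to 0.624 (3′ sites, 23 nt), and its LeafCutter p-value was 0.13. *Rbm3*, the cold-inducible RNA-binding protein, had 0.419 and 0.280 for a 4 nt pair in its 3′ UTR, with a p-value of 0.332. *Ldah*, a lipid droplet hydrolase, had 0.316 and 0.182 for a 12 nt pair in its 5′ UTR, with a p-value of 0.0218 and an adjusted p-value of 0.545. A large difference in the fitted PSI thus went with high and with low p-values.

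Among pairs used nearly equally in untreated cells, small and large differences were found. The 6 clusters divisible by 3 with the longer intron nearest 0.5 were in *Ncor1* (0.501 and 0.556 after dTAG-13), *Herc1* (0.5004 and 0.524), *Itpr1* (0.496 and 0.498), *Serbp1* (0.505 and 0.503), *Tgfbr1* (0.479 and 0.462) and *Srrt* (0.481 and 0.507). These encode a nuclear receptor corepressor, a ubiquitin ligase, the inositol trisphosphate receptor, an mRNA-binding protein, the type I TGF-β receptor and the cap-associated factor ARS2. Their p-values ran from 0.164 in *Ncor1* to 0.965 in *Itpr1*. The *Srrt* pair, 12 nt apart, has TG and not AG at the end of its shorter intron, although both introns are annotated. The 6 nearest 0.5 that shift the frame were in *Helq*, *Dusp27*, *Hgh1*, *Mllt10*, *Nub1* and *Paxbp1*, with p-values from 0.0148 in *Helq* to 0.875 in *Paxbp1*. *Helq* (0.527 and 0.656) had the largest difference of these, 0.129. *Dusp27* (0.520 and 0.619), *Mllt10* (0.499 and 0.450) and *Nub1* (0.495 and 0.470) lie in 5′ UTRs, while *Hgh1* (0.497 and 0.439) and *Paxbp1* (0.477 and 0.468) lie in coding sequence.

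The pair in *Fgfr1*, at intron 4 of 17, adds or leaves out 6 nt in frame. Whether it is the pair best known from this receptor was not checked. Its longer intron had 0.358 in untreated and 0.473 in dTAG-13 samples, with a p-value of 0.117 and an adjusted p-value of 0.848. The sites scored 0.92 and 1.76 bits, both low. It was the only close pair among the 7 genes listed for documented close sites.

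Of the m6A machinery, 2 genes had a close pair, and neither passed the threshold. The 24 nt pair in *Ythdc1* (intron 13 of 16), in frame, had 0.720 and 0.748 for the longer intron (p-value 0.373). A 26 nt pair of 3′ sites in *Ythdc2*, the meiotic m6A reader, had 0.0852 and 0.101 (p-value 0.631). Over all kinds of clusters, 6 of 27 in the genes of this list had p at most 0.05 (22.2%, against 6.84% of all tested clusters) and 2 an adjusted p under 0.05 (7.41%, against 0.702%). These calls lay outside the close pairs.

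The m6A motif GGACT, searched on the strand of the gene only within 100 nt of either site, was present at 173 of the 917 pairs (18.9%). It was present at 10 of the 44 with p at most 0.05 (22.7%) and at 163 of the 873 others (18.7%). A match says nothing on whether the site carries m6A. *Rpl36a*, *Zfp821*, *Pum2* and *Fgfr1* had 1 match each and *Psmd4* none.

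The counts of p at most 0.05 in the gene lists that follow stand beside 4.80% of all close pairs and 6.84% of all tested clusters, and none of the lists was tested against them. The lists were matched by gene symbol and are not complete. Each count covers the listed genes alone, and genes of the same function outside a list are not in it. Genes of translation and the ribosome had 52 close pairs, with 13 of the 52 divisible by 3. In these the less used intron had a median of 0.0174, the lowest of the lists with 14 pairs or more. Depth, which is unknown here, limits how rare a junction can be seen, and its part in such medians was not tested. *Rps14* had 0.00109 for the longer intron of a pair 2 nt apart. Of the 52, 5 had p at most 0.05 (9.62%), 2 with the longer intron higher and 3 lower. *Rpl41* had 0.0771 and 0.0453 for a 2 nt pair in its 5′ UTR (p-value 0.0213). The mitochondrial list had 14 pairs with a similarly low median of 0.0228 and none with p at most 0.05. Among them were *Ndufb5* (0.973 and 0.954) of respiratory complex I and *Atp5a1* (0.00754 and 0.00431) of the ATP synthase. This list does not hold *Foxred1* (LeafCutter p-value 0.0113).

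The list of splicing factors and RNA-binding proteins had 44 pairs (median 0.0703), of which 1 had p at most 0.05 (2.27%). It was in *Prpf8*, the core protein of the U5 snRNP, with 0.901 and 0.987 for the longer intron (11 nt, p-value 0.0309). This list does not hold *Pum2* (LeafCutter p-value 0.00423) or *Ago1* (0.0387). *Prpf18*, a second-step factor, had 0.950 and 0.976, and the helicase *Dhx30* 0.0428 and 0.0236. The chromatin list had 31 pairs (median 0.0992) with 1 at p at most 0.05 (3.23%), *Trim28*, the KAP1 corepressor, at 0.00571 and 0.0101. This list does not hold *Atf7ip* (LeafCutter p-value 0.0167) or *Mbd3* (0.0281 for a 5′ pair and 0.0411 for a 3′ pair). *Ehmt1*, the GLP histone methyltransferase, had 0.864 and 0.823, and *Smarca1*, an ISWI remodeller, 0.834 and 0.925. The transcription and zinc finger list had 35 pairs (median 0.0822) and 3 at p at most 0.05 (8.57%), *Zfp821*, *Zfp148* and *Zfp57*. The last, a keeper of genomic imprints, had 0.213 and 0.177. This list does not hold *Brf1* (LeafCutter p-value 0.0105) or *Ubtf* (0.0208).

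Ubiquitin and proteasome genes had 52 pairs (median 0.0815) and 2 at p at most 0.05 (3.85%), *Psmd4* and *Trim28*, which is in both lists. Membrane traffic genes had 31 pairs (median 0.0994) and 1 at p at most 0.05 (3.23%), *Rab4a*, an endosomal GTPase, with 0.0546 and 0.104. *Vps16* of the HOPS complex had 0.712 and 0.596 (p-value 0.0776), and *Atp6v0b* of the V-ATPase 0.0389 and 0.0799. Signalling genes had 18 pairs (median 0.123) and 2 at p at most 0.05 (11.1%), *Prkcsh*, a glucosidase II subunit of the endoplasmic reticulum that entered the list by its symbol, with 0.882 and 0.833, and the pair named *Mapkapk5*, *Adam1a* and *Gm42878*, with 0.281 and 0.354. *Braf* had 0.128 and 0.0634 (p-value 0.0822). The cell cycle and repair list had 46 pairs (median 0.0848) and none at p at most 0.05. Among them were *Cenpq* (0.0209 and 0.0382) and *Cenpt* (0.956 and 0.914) of the centromere and *Mcmbp* (0.0152 and 0.0282). This list does not hold *Helq* (LeafCutter p-value 0.0148). No list had a pair with an adjusted p under 0.05.

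Pluripotency genes had 4 pairs in 3 genes (median 0.0161), none with p at most 0.05. *Tbx3* had 0.982 and 0.991, *Tfcp2l1* 0.0103 and 0.0155 and *Rif1* 0.0139 and 0.0169 for the longer intron. The list of differentiation markers had 1 pair, in *Otx2*, with 0.836 and 0.823 for a 24 nt pair, and the fibroblast markers of the feeder cells had none, though 6 of their clusters of other kinds were tested. PSI gives no level of a gene, so these lists do not measure how many feeder or differentiated cells the samples held, and their part in the values was not tested. The remaining pairs 2 nt apart with the lowest p-values were in *Washc2*, of the WASH complex, with 0.0887 and 0.128, and in the noncoding RNA *Rian*, with 0.0557 and 0.0397.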

How the data were processed

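RNA labelled with 4sU was sequenced in 12 samples, 6 untreated and 6 with dTAG-13. The authors aligned reads to mm10 with STAR 2.5.2b, end to end and uniquely, and ran LeafCutter with both clones in 1 test. The deposited PSI is a fraction per intron and condition, fitted over the samples of a condition, and the deposited p-value is a likelihood-ratio test per cluster. Columns with the authors' effect size, their difference in PSI, log-likelihood ratio and adjusted p-value were not used. The clone was not a stated term. End-to-end alignment of a hybrid genome to 1 reference may affect sites a few nt apart, which was not tested.

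The difference (dTAG-13 minus untreated) and the Benjamini-Hochberg adjustment over 7263 clusters were computed here (Python 3.11.15, pandas 2.3.3, scipy 1.17.1, pysam 0.24.0). Scripts were tested on simulated data. The deposited ends were the exonic bases beside the intron: read so, 20422 of 20437 introns started with GT or GC and closed with AG. Genome and annotation were GRCm38 and GENCODE vM21. Each pair was placed in an annotated coding transcript that holds 1 of its introns, except the 24 with only noncoding, incomplete or no annotated transcripts. Transcripts marked as principal or basic in the annotation were preferred, and after them those with the intron more used in untreated cells. In all, 899 pairs had 1 gene name, 15 several and 3 none, and sequences of 24 pairs and the values of some named genes are not reported here. Site scores were log2 odds against a base share of 0.25 with a pseudocount of 1.

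The members and gene lists were chosen with earlier results of these data known. Genes were named by this rule: an adjusted p-value under 0.2; the 12 lowest p-values; the 8 largest differences; the 6 pairs of each frame class nearest 0.5; the lists of documented pairs and m6A machinery; up to 3 per other list; and the 4 pairs 2 nt apart with the lowest p-values. *Cnot1* and *Birc6* (many pairs), *Rpl4* and *Ubtf* were added after their values were seen.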

Additional observations from a re-analysis of the deposited data

How the results depend on the processing

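No paired analysis was possible because the files hold 1 pooled PSI per condition and no value per sample, and no fit without a replicate was run for the same reason. Depth is unknown, so the precision of a low PSI is unknown too. For shares of pairs called, a value counted as moved if it was over 1.5 times higher or lower than the original. For medians and the share with the longer intron higher, it did if it lay outside the 95% interval over clusters. By these limits 55 values stayed and 20 moved. No alternative brought a close pair under an adjusted p-value of 0.05, also not Benjamini-Yekutieli adjustment, and the class divisible by 3 had the higher median use of the less used intron in all alternatives run.

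With pairs 3 nt apart added, the median absolute difference was 0.0138 and the median of the less used intron divisible by 3 was 0.156. With distances up to 20 nt, 0.146% had an adjusted p-value under 0.2. With both introns annotated, that share was 0.491%, 3.44% differed by at least 0.1, the median absolute difference was 0.0192, and the less used intron had medians of 0.202 (divisible by 3) and 0.105 (not). With the less used intron at 0.05 or more these were 0.174%, 2.96%, 0.0203, 0.186 and 0.112. With 5′ sites alone, the share under 0.2 was 0.685%, the median absolute difference 0.0142 and the median not divisible by 3 was 0.0782, and with 3′ sites alone 0%, 0.0103 and 0.0462. At a difference of at least 0.05 in place of 0.1, 10.6% of the pairs passed. The causes of these shifts were not tested, beyond the pairs each alternative left out.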
